A study of Homo sapiens with 27 samples.

Results

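The subunits of the oxidative phosphorylation machinery were described across 27 RNA-seq libraries of MCF10A, an established line of human breast epithelium that does not form tumours. Members were protein-coding genes chosen by symbol alone: NDUFA, NDUFB, NDUFC, NDUFS and NDUFV genes with a number (complex I), SDHA to SDHD (complex II), UQCR genes (complex III), COX5 to COX8 genes with a subunit letter (complex IV), ATP5 genes (complex V), and the protein-coding genes of the mitochondrial genome. NDUFA4 and NDUFA4L2 match the NDUFA pattern but were counted with complex IV. The rule found 100 genes among 36564 symbols or identifiers in the count table, 87 encoded in the nucleus and 13 in the mitochondrion. COX4I1 and cytochrome c did not match the symbol pattern and are given with the gene lists instead. The cells had been grown with EGF at 20 ng/ml, horse serum, hydrocortisone, cholera toxin and insulin, and growth factors were then withheld for 18 h. The T0 group was collected at that point (0 h) without treatment, and the other 8 groups 24 h after addition of PBS, EGF, OSM (oncostatin M), TGFB, EGF+OSM, EGF+TGFB, OSM+TGFB or EGF+OSM+TGFB, each ligand at 10 ng/ml. Each of the 9 groups had 3 libraries. The labels do not say whether these came from separate cultures, so a p-value measures the spread between these samples, which may be technical.

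Oxidative phosphorylation takes place in the inner mitochondrial membrane. Complexes I and II pass electrons from NADH and succinate to ubiquinone, complex III passes them to cytochrome c, and complex IV passes them to oxygen. Complexes I, III and IV pump protons, and complex V, the ATP synthase, uses the resulting gradient to make ATP. Complex II is encoded wholly in the nucleus, whereas the other complexes combine nuclear subunits with core subunits that the mitochondrial genome encodes. Nuclear subunit genes are scattered over the chromosomes, and many have been described as targets of the factors NRF1, the ETS factor GABP and YY1, with coactivators of the PGC-1 family. The mitochondrial genes are transcribed together as long precursors from both strands and are cut into separate mRNAs, so that their levels depend on shared transcription and on the stability of each mRNA.

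Promoter motifs found in some members are shown first. Of the members printed, 3 held the palindromic NRF1 motif and 1, ATP5PF, held the YY1 motif before its start site. All members printed hold a motif, unlike most of the matched members. RefSeq promoter windows (GRCh38.p14; 250 bases before to 50 after the start site, 300 in all) were matched for 67 of the 87 nuclear members, and only bases before the start site are printed. Capitals mark the NRF1 motif in the first 3 and, in SDHD, the ETS motif CCGGAAGT read on the opposite strand, and the YY1 motif in ATP5PF. The SDHD window lies at chr11:112086623-112086872 on the plus strand, with the NRF1 motif starting 110 bases and the ETS motif 78 bases before the start site. The ATP5F1C stretch lies at chr10:7788127-7788176 on the plus strand and the NDUFB4 stretch at chr3:120596146-120596205 on the plus strand. The ATP5PF stretch lies at chr21:25735075-25735134 on the minus strand.
SDHD: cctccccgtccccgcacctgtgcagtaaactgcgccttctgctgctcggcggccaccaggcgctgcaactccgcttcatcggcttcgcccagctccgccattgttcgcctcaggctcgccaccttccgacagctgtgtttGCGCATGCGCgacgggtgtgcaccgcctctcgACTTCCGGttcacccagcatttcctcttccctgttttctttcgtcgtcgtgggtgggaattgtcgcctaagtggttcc
ATP5F1C: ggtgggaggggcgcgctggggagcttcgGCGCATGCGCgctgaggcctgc
NDUFB4: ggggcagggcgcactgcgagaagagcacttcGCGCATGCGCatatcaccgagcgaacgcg
ATP5PF: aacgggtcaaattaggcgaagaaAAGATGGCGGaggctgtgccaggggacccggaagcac
Searched on both strands of the 300 bases, the NRF1 palindrome in capitals above was found in 4 of 67 members (5.97%), against 1.24% of all 35116 promoter windows and 1.5% of those of protein-coding genes. The ETS motif CCGGAAGT was found in 9 members (13.4%), against 4.14% of all windows and 5.33% of protein-coding ones. The YY1 motif, the capitals in ATP5PF, was found in 7 members (10.4%), against 1.20% and 1.68%. At least 1 of the 3 motifs stood in 19 members (28.4%), against 6.26% of all windows and 8.09% of protein-coding ones. No motif contains another, a match describes letters only, and no binding was measured.

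The libraries held 30.1 to 52.9 M counts (median 39.5 M, with M for mega). CPM stands for counts per M, read counts divided by the scaled library size in M. Averaged over the 27 libraries, all 8 markers of mammary basal epithelium exceeded 1 CPM. So did 3 of 6 luminal and 2 of 6 fibroblast markers. No marker of endothelium (3 genes), leukocytes (4) or adipocytes and muscle (4) had such a mean. The muscle marker MYH7 was at 0 in all libraries. The summed endothelial markers ran from 2.60 to 4.59 CPM with PBS and 0.71 to 1.02 with EGF. The summed fibroblast markers ran from 128.6 to 133.4 CPM with PBS, 30.9 to 35.9 with EGF, 87.8 to 110.4 with OSM, 204.0 to 214.0 with TGFB and 13.1 to 15.3 with EGF+OSM. The luminal sum was 398 to 422 CPM with PBS and 1056 to 1119 with all 3 ligands, and the basal sum was 10744 to 12330 CPM with PBS and 21826 to 23061 with all 3. The part of these markers in the results was not tested. Replicate 1 of the EGF group stood apart from the other EGF libraries in its mitochondrial counts, and so did replicate 1 of EGF+TGFB (ratio of mitochondrial to nuclear counts 2.77, against 2.26 and 2.24). Replicate 1 had the highest such ratio of its group in every group but EGF+OSM and EGF+OSM+TGFB. Results that rest on replicate 1 of EGF or of EGF+TGFB are given with and without it. In these bulk samples, a change in RNA per cell and a change in the make-up of the cell population cannot be told apart. Because polyA RNA was sequenced, a change in the amount of a mitochondrial mRNA and a change in its tail cannot be told apart either.

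Every ligand group gave a smaller share of its counts to the nuclear subunits than PBS. The nuclear members took 1.16% ± 0.0695 (SD, n = 3) of all counts at T0 and 1.12% ± 0.0398 with PBS. This share was 0.899% ± 0.0182 with EGF, 0.820% ± 0.0284 with OSM and 0.837% ± 0.0313 with TGFB. It was 0.805% ± 0.0264 with EGF+OSM, 0.671% ± 0.0333 with EGF+TGFB, 0.615% ± 0.0140 with OSM+TGFB and 0.603% ± 0.0267 with all 3 ligands. The lowest PBS library (1.07%) lay above the highest library of any ligand group (0.910%, EGF), and T0 overlapped PBS.

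The mitochondrial members followed another order, with EGF and OSM libraries low and TGFB libraries between these and PBS. They took 3.05%, 2.85% and 3.06% of counts in the PBS libraries, 2.10%, 1.59% and 1.60% with EGF, and 1.88%, 1.68% and 1.92% with OSM. With TGFB they took 2.62%, 2.24% and 2.74%. All 3 TGFB libraries thus lay below the lowest PBS library and above every library of the other ligand groups. Combinations gave 1.44% ± 0.141 (EGF+OSM), 1.62% ± 0.136 (EGF+TGFB), 1.44% ± 0.0448 (OSM+TGFB) and 1.30% ± 0.121 (EGF+OSM+TGFB).

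The ratio of mitochondrial to nuclear counts, which does not depend on how libraries are scaled, was 2.67 ± 0.176 (SD, n = 3) with PBS. It was 1.96 ± 0.367 with EGF, 2.23 ± 0.188 with OSM, and under EGF+OSM it was 1.79 ± 0.116. With TGFB it was 3.03 ± 0.309. The EGF, OSM and EGF+OSM libraries all lay below the lowest PBS library (2.49), although EGF replicate 1 (2.39) came close to it. Libraries with OSM+TGFB (2.28 to 2.37) and with EGF+OSM+TGFB (2.09 to 2.27) also lay below it. Those with EGF+TGFB (2.24 to 2.77) overlapped PBS. The untreated T0 libraries (2.56, 2.39 and 2.27) overlapped both PBS and OSM. The TGFB libraries (2.67 to 3.25) overlapped those with PBS (2.49 to 2.84).

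**Figure D1:**
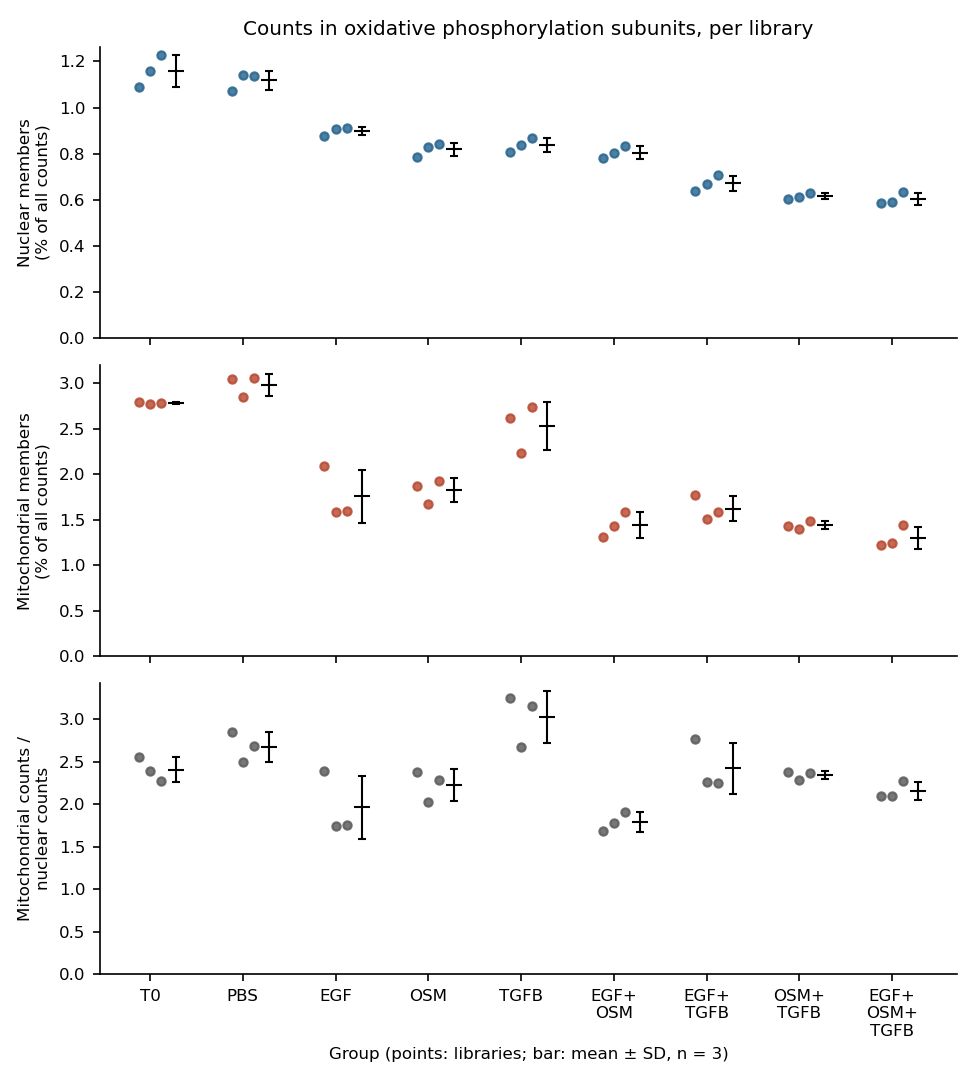
Counts in nuclear members (top, % of all counts), in mitochondrial members (middle, % of all counts) and their ratio (bottom), for each library (points) in 9 groups, with mean ± SD (bars, n = 3). Nuclear shares fell below PBS in every ligand group, whereas mitochondrial shares stayed between 2.24% and 2.74% with TGFB and were at most 2.10% in every other ligand group.

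With EGF, most nuclear subunit mRNAs fell, and all 13 mitochondrial mRNAs fell further than the median nuclear one. Of 81 nuclear members tested, 48 fell and 11 rose against PBS, with a median log2 fold change of -0.21. EGF called 73.5% of all 15575 genes tested (34.9% higher, 38.6% lower), with a median over all genes of -0.07. All 13 mitochondrial members fell, with a median of -0.75 and a range of -1.11 to -0.45. Calls here and below were made at an adjusted p under 0.05 in edgeR's quasi-likelihood test, with p-values adjusted over all 15575 genes by the Benjamini-Hochberg method.

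By complex, the nuclear subunits are read against 38.6% of all genes lower and 34.9% higher with EGF, and differences between complexes were not tested. In complex IV, 10 of 13 fell and the others were not called (median -0.40). In complex III, 7 of 8 fell, and in complex II all 4 did. Complex V had 10 lower and 3 higher of 19. Complex I had 17 lower and 8 higher of 37, and these 8 were most of the 11 members that rose.

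NDUFB5, an accessory subunit of the membrane arm of complex I, fell most among nuclear members. Its level was 106, 111 and 105 CPM in the PBS libraries and 46.2, 50.2 and 49.5 with EGF. The groups were far apart, and the fold was 0.454 (log2 -1.14, SE 0.06, adjusted p = 1.46e-14 by edgeR). UQCRB, the ubiquinone-binding protein of complex III, stood at 189, 211 and 205 CPM with PBS and 104, 117 and 113 with EGF (log2 -0.86, SE 0.07). COX5B, a subunit of complex IV, went from 154, 173 and 180 CPM to 96.7, 106 and 104 (log2 -0.72, SE 0.08). Neither gene's EGF libraries overlapped those with PBS.

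The opposite movement was seen in a small group of complex I genes. NDUFS8, an iron-sulfur subunit of the peripheral arm, stood at 32.7, 36.4 and 37.5 CPM with PBS and rose to 51.1, 54.3 and 54.7 with EGF (log2 0.59, SE 0.09). NDUFB6, a membrane-arm subunit, rose from 18.1, 19.4 and 16.9 CPM to 25.6, 26.1 and 24.7 (log2 0.49, SE 0.08). In neither case did the groups overlap. NDUFC2-KCTD14, a read-through transcript annotated as its own gene, rose by 0.83 on the log2 scale (SE 0.27) from 1.53, 1.88 and 2.13 CPM to 3.45, 3.33 and 3.02. Reads of this transcript and of NDUFC2 may not be separable.

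OSM gave a similar count of nuclear members and a smaller difference in the mitochondrial ones. Against PBS, 51 nuclear members fell and 9 rose (median -0.22), in a comparison that called 63.4% of all genes (33.5% higher, 29.8% lower; median 0.00). All 13 mitochondrial members fell, with a median of -0.57 and a range of -0.69 to -0.31. By complex, 19 of 37 complex I, 3 of 4 complex II, 6 of 8 complex III, 11 of 13 complex IV and 12 of 19 complex V nuclear members fell. EGF and OSM were compared with the same PBS libraries.

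NDUFB5 again fell most among nuclear members, to 55.4, 64.4 and 58.2 CPM with OSM (log2 -0.85, SE 0.06). SDHD, a membrane anchor of complex II, went from 117, 116 and 117 CPM with PBS to 70.0, 73.3 and 78.1 (log2 -0.66, SE 0.07). UQCRC2, a core protein of complex III, went from 246, 285 and 273 CPM to 162, 181 and 169 (log2 -0.65, SE 0.06). For these genes no OSM library reached the lowest PBS library. NDUFS5, a complex I subunit on the intermembrane-space side, rose from 111, 121 and 125 CPM to 142, 157 and 162 (log2 0.37, SE 0.06), and its groups did not overlap either.

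TGFB lowered nuclear members and left no mitochondrial member called. Of 81 nuclear members 65 fell and none rose (median -0.30, with 78 of the 81 estimates below 0), while the comparison called 35.6% of all genes (19.9% higher, 15.8% lower; median -0.01). DESeq2 also raised none, and at an unadjusted p under 0.05 the count in either direction was 73. Every complex took part: 24 of 37 members of complex I, 4 of 4 of complex II, 8 of 8 of complex III, 11 of 13 of complex IV and 18 of 19 of complex V fell.

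None of the 13 mitochondrial members was called with TGFB by edgeR, and their estimates ran from -0.24 (MT-CO2) to -0.01 (MT-ND1), with a median of -0.18. Of them, 4 had an unadjusted p under 0.05, DESeq2 called 3, and 4 were called without TGFB replicate 3. The median SE of these estimates was 0.10, against 0.06 for the nuclear members. MT-CO1, the catalytic subunit of complex IV and the mitochondrial member with the highest count, stood at 9251, 9131 and 9531 CPM with PBS and 8411, 7555 and 8993 with TGFB. All 3 TGFB libraries lay below PBS, but with an SE of 0.08 the log2 difference of -0.16 was not called (adjusted p = 0.143 by edgeR).

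The nuclear genes that fell most with TGFB belonged to complexes V and II. ATP5MC1, a gene for subunit c of the ATP synthase rotor, went from 51.6, 55.0 and 58.5 CPM to 33.8, 30.3 and 34.6 (log2 -0.74, SE 0.10). ATP5MC3, another gene for the same subunit, went from 255, 275 and 285 CPM to 155, 180 and 191 (log2 -0.63, SE 0.08). SDHD went from 117, 116 and 117 CPM to 65.5, 82.8 and 78.4 (log2 -0.63, SE 0.07). The groups were separate for all 3 genes. ATP5F1B, the catalytic beta subunit of the ATP synthase, had a log2 fold change of -0.59 (SE 0.07).

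**Figure D2:**
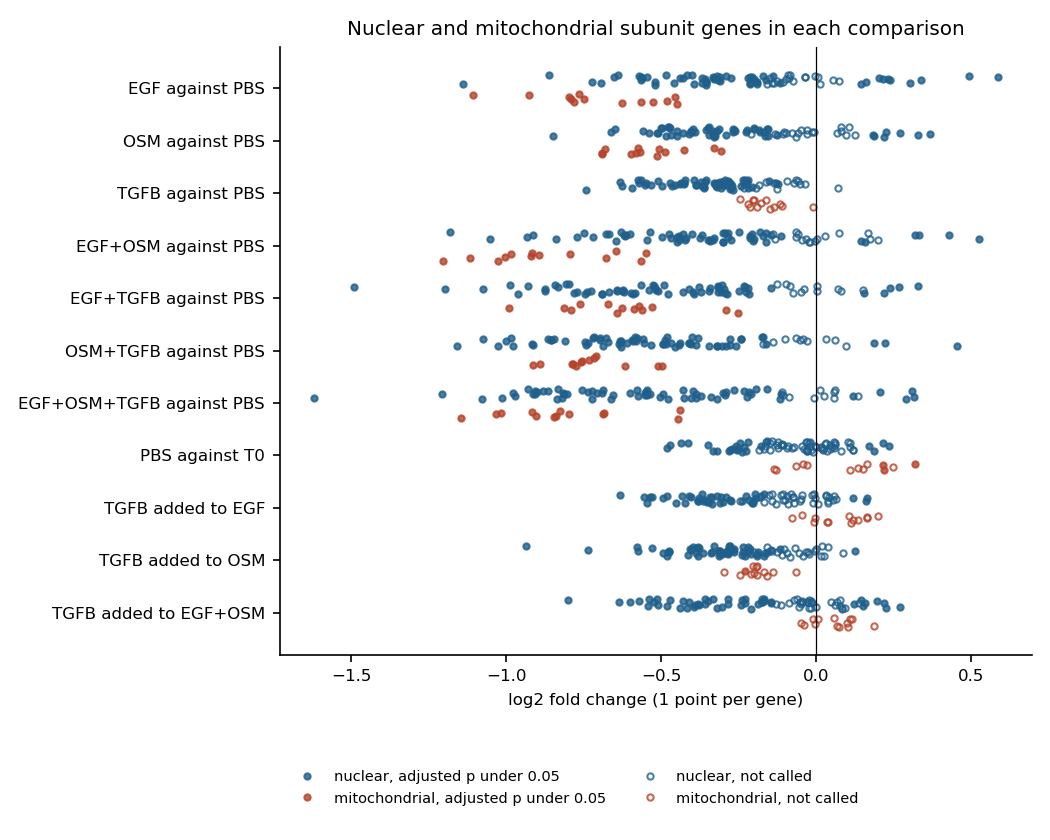
Log2 fold change of each tested member in 11 comparisons (1 point per gene; nuclear members blue, mitochondrial members red; filled where the adjusted p was under 0.05). NDUFA4L2, COX6B2, NDUFC2-KCTD14 and ATP5MF-PTCD1 (near-zero or read-through genes) are not drawn. Mitochondrial points lie left of most nuclear ones with EGF and with OSM. They lie from -0.24 to -0.01 with TGFB, and around 0 where TGFB was added to EGF or to EGF+OSM.

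The 13 mitochondrial mRNAs did not fall equally. MT-ND1, a core complex I subunit, went from 1258, 1135 and 1163 CPM with PBS to 675, 496 and 480 with EGF (fold 0.464, log2 -1.11, SE 0.11). MT-CO1 went from 9251, 9131 and 9531 CPM to 5625, 4576 and 4491 (log2 -0.93, SE 0.08). MT-ND5, another core complex I subunit, went from 1519, 1465 and 1566 CPM to 1322, 1006 and 991 (log2 -0.46, SE 0.09). No EGF library overlapped PBS for these genes, and EGF replicate 1 was the highest EGF library for each of them. Without it, the EGF estimates were -1.28 for MT-ND1, -1.04 for MT-CO1 and -0.60 for MT-ND5, and the median of the 13 was -0.88.

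MT-ND6 and MT-ND5 had the smallest falls with EGF (-0.45 and -0.46) and with OSM (-0.33 and -0.31). They were again the smallest with all 3 ligands, at -0.45 and -0.44. MT-ND6 is the only protein-coding gene of the light-strand transcript, and it lies directly beside MT-ND5 on the opposite strand. Their log2 CPM values correlated at r = 0.98 over the 27 libraries, against 0.85 to 0.94 between MT-ND5 and the other mitochondrial members (no test; the libraries are shared). Whether strand was used in counting is not given in the sources used here, so reads of this pair may not have been told apart. MT-ATP8 and MT-ATP6 overlap by 46 bases, MT-ND4L and MT-ND4 by 7, and MT-ATP6 and MT-CO3 by 1, and their counts share reads to that extent.

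**Figure D3:**
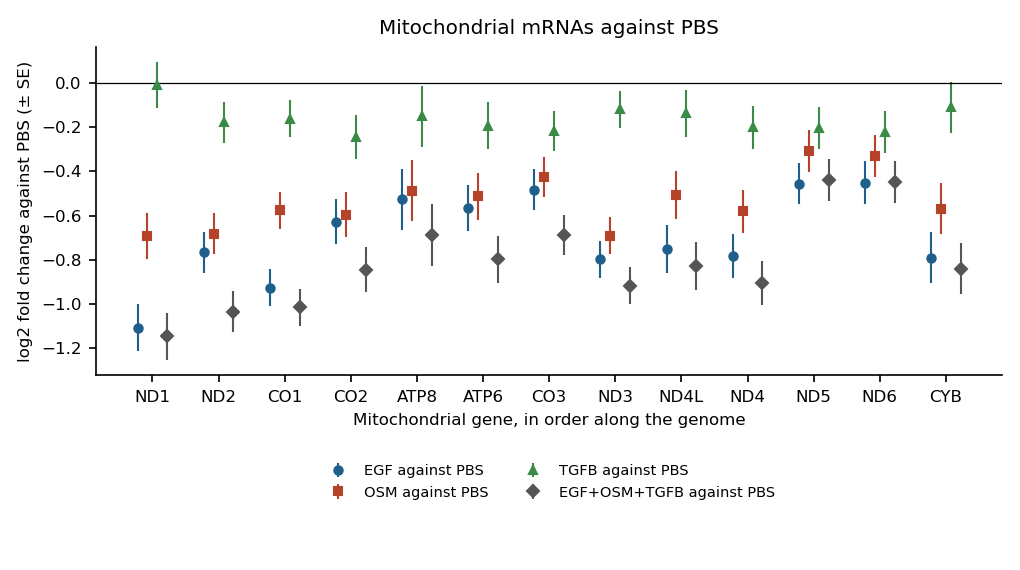
Log2 fold change against PBS (± SE) of the 13 mitochondrial mRNAs, in order along the genome, for EGF, OSM, TGFB and all 3 ligands. EGF points run from -1.11 (ND1) to -0.45 (ND6), and ND5 and ND6 are the highest points with EGF, with OSM and with all 3 ligands.

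Per kilobase of gene, MT-CO1 had the highest level with PBS (6034 CPM per kb ± 133, SD, n = 3) and MT-ND6 the lowest (746 CPM per kb ± 11). MT-CO2 came next (4419 ± 285). With EGF, MT-CO1 (3176 ± 410) and MT-CO2 (2861 ± 359) were still the highest and lay within each other's spread between libraries, although MT-CO1 exceeded MT-CO2 within each of the 3 EGF libraries. MT-ND6 (546 ± 89.3), MT-ND1 (575 ± 113) and MT-ND5 (611 ± 103) were then the lowest and lay within each other's spread between libraries, in this same order within each of the 3 EGF libraries, whereas MT-ND1 (1240 ± 67.6) stood clear of MT-ND5 (837 ± 27.9) with PBS.

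The ends of the mitochondrial genes show a feature that the selection of members did not use, and 4 of them are printed because these genes fell most and least. The last 20 bases of each gene (chrM, GRCh38) are given in the gene's own direction, with the final codon or the bases left of it in capitals. MT-ND1 spans chrM:3307-4262 and MT-CO1 chrM:5904-7445 on the heavy-strand transcript, MT-ND5 spans chrM:12337-14148, and MT-ND6 spans chrM:14149-14673 on the minus strand.
MT-ND1: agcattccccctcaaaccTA
MT-CO1: ccgtatacataaaatctAGA
MT-ND5: ccctactcctaatcacaTAA
MT-ND6: agattgctcgggggaatAGG
A total of 7 genes end in a complete stop codon of the vertebrate mitochondrial code, and 6 end in T or TA, so that the stop codon is completed by the polyA tail. The median log2 fold change of these 7 and 6 genes was -0.57 and -0.79 with EGF, -0.51 and -0.63 with OSM, and -0.19 and -0.15 with TGFB. The 2 groups overlapped with EGF (-0.93 to -0.45 and -1.11 to -0.48), and no test was made of this split.

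Combinations that held TGFB had the lowest nuclear levels. Against PBS, 55 nuclear members fell and 7 rose with EGF+OSM (median -0.30; 77.2% of all genes called, 37.6% higher and 39.6% lower). With EGF+TGFB, 62 fell and 6 rose (median -0.39; 73.7% of all genes, 36.2% higher and 37.5% lower). With OSM+TGFB, 65 fell and 5 rose (median -0.48; 66.0% of all genes, 34.2% higher and 31.8% lower). With all 3 ligands, 62 fell and 8 rose (median -0.48; 74.4% of all genes, 37.7% higher and 36.7% lower). All 13 mitochondrial members fell in each combination, with medians of -0.92 (EGF+OSM), -0.63 (EGF+TGFB), -0.75 (OSM+TGFB) and -0.84 (all 3). All 4 comparisons used the same PBS libraries.

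The nuclear member that fell most in every combination was NDUFB5, to 46.6, 45.2 and 50.0 CPM with EGF+OSM and 35.3, 33.5 and 35.6 with all 3 ligands. With all 3 ligands its fold was 0.325 (log2 -1.62, SE 0.06), and no library of this group came near the lowest PBS library (105 CPM). UQCRC1, a core protein of complex III, stood at 413, 464 and 445 CPM with PBS and 216, 209 and 211 with EGF+OSM (log2 -1.05, SE 0.05), against 395, 408 and 409 with TGFB. COX7B, a small subunit of complex IV, stood at 111, 124 and 119 CPM with PBS and 55.3, 56.1 and 62.9 with OSM+TGFB (log2 -1.03, SE 0.08). NDUFB6 and NDUFV2, a flavoprotein-fraction subunit of complex I, rose with EGF+OSM (0.53 and 0.43). NDUFB2 and NDUFS5 rose with EGF+TGFB (0.33 and 0.27), and NDUFS5 also with OSM+TGFB (0.45).

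Over the 7 ligand groups, 39 of the 81 tested nuclear members (48.1%) were lower than PBS in all 7, as were 1055 of all genes (6.77%). These 39 included the Rieske protein UQCRFS1, the iron-sulfur subunit NDUFS1 of complex I, the ATP synthase alpha and beta subunits ATP5F1A and ATP5F1B, and the ATP synthase inhibitor ATP5IF1. UQCRFS1 fell by 0.19 with EGF, 0.48 with OSM and 0.45 with TGFB on the log2 scale, and NDUFS1 fell by 0.32, 0.48 and 0.31. ATP5IF1 fell by 0.32, 0.40 and 0.23, and stood at 61.7, 68.6 and 64.9 CPM with PBS. A further 27 members were lower in 1 to 6 groups and higher in none. Another 8 were higher in at least 1 group and lower in none (COX6B2, NDUFA4L2, NDUFB2, NDUFB6, NDUFC2, NDUFC2-KCTD14, NDUFS5 and NDUFS6), and 7 were called in both directions (ATP5MC1, ATP5MD, ATP5MF, NDUFS8, NDUFV2, SDHC and UQCRQ). The same PBS libraries stand behind all 7 comparisons.

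TGFB was also compared with its absence in cells that had another ligand, which does not involve the PBS libraries. Added to EGF, it lowered 42 nuclear members and raised 3 (median -0.20; 54.6% of all genes called, 27% higher and 27.7% lower). Added to OSM, it lowered 56 and raised 1 (median -0.26; 51.6% of all genes, 26.1% higher and 25.6% lower). Added to EGF+OSM, it lowered 40 and raised 10 (median -0.17; 61.1% of all genes, 31.6% higher and 29.5% lower). Complex V had 13, 18 and 13 of 19 members lower in these comparisons, and complex IV had 4, 6 and 3 of 13. On EGF and on OSM, the few members raised depended on single libraries. Added to EGF, 1 was raised without EGF replicate 3 or EGF+TGFB replicate 2. Added to OSM, none was without OSM replicate 1 or OSM+TGFB replicate 2 or 3.

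Mitochondrial members were scarcely called when TGFB was added. Added to EGF, none of the 13 was called by edgeR or DESeq2, 1 had an unadjusted p under 0.05, and the median was 0.11. Without EGF replicate 1, however, 6 of the 13 were called higher and the median was 0.24, and without EGF+TGFB replicate 3, 1 was. Without EGF+TGFB replicate 1, none was called and the median was 0.01. Added to OSM, MT-ND2 alone was called lower (-0.23), with all 13 estimates below 0 (median -0.20) and 5 at an unadjusted p under 0.05. DESeq2 called 3 lower, a replicate block 4 and a fit of the compared groups alone 7. With edgeR, 6 were called lower without OSM replicate 2 and none without each of 5 other libraries (OSM replicates 1 and 3, and each OSM+TGFB replicate). Added to EGF+OSM, none was called by edgeR or DESeq2, none had an unadjusted p under 0.05, and the median was 0.07.

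ATP5MC1 fell most among nuclear members in each of these 3 comparisons, by 0.63, 0.93 and 0.80 on the log2 scale (SE 0.10 in each). It stood at 52.7, 59.8 and 61.7 CPM with OSM and 28.8, 29.1 and 33.2 with OSM+TGFB. ATP5F1D, the delta subunit of the ATP synthase stalk, fell by 0.73 (SE 0.11) when TGFB was added to OSM. ATP5F1E, the epsilon subunit that sits beside it, rose in all 3 comparisons instead, by 0.16, 0.12 and 0.27. The call on OSM was lost with upper-quartile scaling, with no filter, with the compared groups alone and without each of the 3 libraries named above, and the call on EGF was lost without EGF replicate 3. NDUFV2 fell by 0.64 (SE 0.05) when TGFB was added to EGF+OSM, from 92.2, 102 and 106 CPM to 64.0, 61.5 and 67.4. Over the 81 nuclear members, the log2 fold changes for EGF against PBS and for TGFB added to OSM, which share no library, correlated at r = -0.13, and at -0.10 over 77 members without 4 near-zero or read-through genes. For TGFB against PBS and TGFB added to OSM, which also share none, the values were 0.40 over 81 and 0.73 over 77 members, so that the 4 genes moved this value. These are descriptions over genes, which are not replicates.

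Between EGF and OSM, 11 nuclear members were higher with EGF and 21 higher with OSM (median 0.00; 56.8% of all genes called, 28.8% higher and 28% lower with EGF). MT-ND1 (-0.42) and MT-CO1 (-0.35) were called lower with EGF than with OSM, and 8 mitochondrial members were called so without EGF replicate 1, and 4 without OSM replicate 2. NDUFS8 was higher with EGF (0.51, SE 0.09), as was ATP5MC3 (0.36, SE 0.08). ATP5MC2 was lower (-0.57, SE 0.05), with 116, 119 and 111 CPM with EGF and 171, 179 and 162 with OSM. Without OSM replicate 3, the count of members higher with EGF was 17.

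The 3 genes for subunit c of the ATP synthase, which encode the same mature protein behind different targeting sequences, did not move together. ATP5MC1 rose with EGF to 63.9, 65.2 and 65.4 CPM (log2 0.24, SE 0.10, adjusted p = 0.0360 by edgeR) and fell with TGFB. ATP5MC2 stood at 182, 194 and 183 CPM with PBS and 116, 119 and 111 with EGF (log2 -0.69, SE 0.05), and changed less with OSM (-0.13) and TGFB (-0.24). ATP5MC3 was not called with EGF (-0.04, SE 0.08, 255, 267 and 273 CPM) and fell with OSM (-0.39) and TGFB (-0.63). ATP5MC2 was lowest where EGF was present, reaching 87.5, 90.2 and 87.6 CPM with all 3 ligands, below every library without EGF. ATP5MC1 was at most 45 CPM in libraries with TGFB and at least 51.6 CPM in all others.

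**Figure D4:**
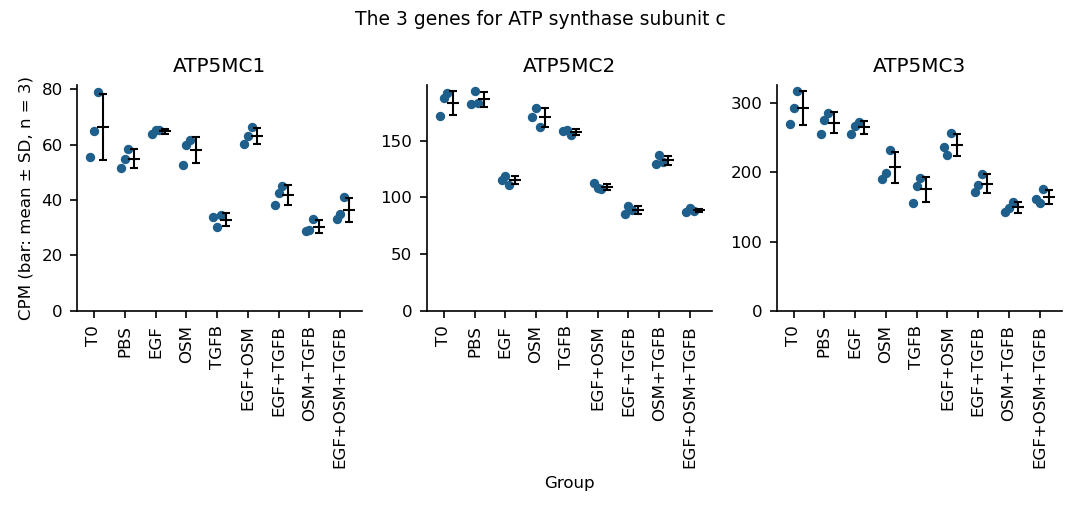
CPM of ATP5MC1, ATP5MC2 and ATP5MC3 in each library (points) of 9 groups, with mean ± SD (bars, n = 3); each panel has its own axis from 0. ATP5MC2 is low in the 4 groups with EGF, and ATP5MC1 is low in the 4 groups with TGFB.

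Within complex II, which oxidises succinate and also works in the tricarboxylic acid cycle, 1 of the 4 subunits moved the other way with OSM. SDHA, the flavoprotein, fell by 0.37, 0.35 and 0.30 on the log2 scale with EGF, OSM and TGFB. SDHB, the iron-sulfur subunit, fell by 0.14, 0.35 and 0.47, and SDHD by 0.64, 0.66 and 0.63. SDHC, the other membrane anchor, stood at 122, 127 and 125 CPM with PBS, 111, 120 and 115 with EGF, 133, 145 and 148 with OSM and 109, 114 and 119 with TGFB. SDHC thus rose with OSM (0.19, SE 0.04) and fell with EGF (-0.12) and TGFB (-0.13). SDHD, whose promoter is printed above, reached 50.0, 48.6 and 53.1 CPM with all 3 ligands (log2 -1.21, SE 0.07), while SDHC stood at 137, 135 and 135 in the same libraries (log2 0.12, SE 0.04).

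Nuclear members were also divided by whether their promoter window held 1 of the 3 motifs. With EGF, 13 of 19 members with a motif fell and the others were not called (median -0.21), against 29 lower and 7 higher of 45 tested members without one (median -0.31). With TGFB, 17 of 19 and 35 of 45 fell, with medians of -0.33 and -0.29. The split was not tested.

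At 24 h after addition of PBS, fewer nuclear members differed from T0 than with any ligand against PBS. The share of nuclear members called in either direction was close to that of all genes. For mitochondrial members the order did not hold, since none was called with TGFB. Of the nuclear members 23 were lower and 4 higher in PBS (median -0.07; 35.1% of all genes called, 16.2% higher and 18.9% lower). The 4 were NDUFB5 (0.24), NDUFA10 (0.22), SDHD (0.19) and UQCRC2 (0.17). NDUFB6 (-0.48) and NDUFS8 (-0.47) were among the 23, and NDUFS8 went from 40.9, 49.3 and 57.7 CPM at T0 to 32.7, 36.4 and 37.5. MT-ND2 (0.32), MT-ND3 (0.22) and MT-CO1 (0.22) were higher with PBS than at T0. In each fit that left out 1 T0 or PBS library, MT-ND2 was called and MT-CO1 and MT-ND3 were not. Without T0 replicate 1 or PBS replicate 2, the count of nuclear members higher was 2.

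Departures from a sum of the ligands' effects on the log2 scale were most frequent among the members for EGF+OSM, while for the 2 pairs with TGFB a smaller share of nuclear members than of all genes departed. The departure of a pair is the difference between the combination's log2 fold change and the sum of those of its single ligands, tested in the same fit. For EGF+OSM, 31 nuclear members departed upwards and 7 downwards (median 0.16; 38.7% of all genes called, 15.7% higher and 23.0% lower), as did 5 mitochondrial members upwards (median 0.33). For EGF+TGFB, the counts were 13 and 1 (median 0.11; 29.8% of all genes, 13.3% higher and 16.5% lower), with MT-ND5 and MT-ND6 upwards. For OSM+TGFB, they were 6 and 1 (median 0.08; 23.3% of all genes, 9.61% higher and 13.7% lower), with no mitochondrial member called by edgeR or DESeq2 and none at an unadjusted p under 0.05. NDUFB5, for example, was at -1.14 with EGF and -0.85 with OSM but at -1.18 with both, a departure of 0.81 (SE 0.09). The mitochondrial counts depended on EGF replicate 1: without it, 12 departed upwards for EGF+OSM and 7 for EGF+TGFB. Without EGF+TGFB replicate 1, none departed for EGF+TGFB. Other libraries also moved these counts when left out: PBS, OSM and EGF+OSM libraries for EGF+OSM, all 4 groups involved for EGF+TGFB, and all 4 for OSM+TGFB, with ranges of 3 to 12, 0 to 7 and 0 to 0 mitochondrial and 23 to 32, 6 to 19 and 1 to 8 nuclear members upwards.

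With EGF, more genes rose than fell in the lists for the mitochondrial ribosome, mitochondrial DNA, mitochondrial RNA and complex I assembly, and with TGFB more fell than rose in each of them. Among all genes, 34.9% rose and 38.6% fell with EGF, 33.5% and 29.8% with OSM, and 19.9% and 15.8% with TGFB. In the mitochondrial ribosome (78 genes), 52 genes rose and 10 fell with EGF (median 0.34), 35 rose and 14 fell with OSM (0.12), and 1 rose and 40 fell with TGFB (-0.20). MRPL17 had the highest EGF estimate (1.20) and MRPL45 the lowest (-0.63). Of 15 genes for mitochondrial DNA transcription and replication, 10 rose and 2 fell with EGF (median 0.42), 7 rose and 2 fell with OSM, and 1 rose and 6 fell with TGFB. TFAM, which packages mitochondrial DNA and helps to start its transcription, went from 34.0 CPM ± 1.23 (SD, n = 3) with PBS to 69.6 ± 7.0 with EGF (log2 1.03), in the libraries where mitochondrial mRNAs were low. Of 16 genes for mitochondrial RNA processing, stability and decay, 13 rose and 1 fell with EGF (0.43), 9 rose and 1 fell with OSM, and 6 fell with TGFB. PNPT1, a nuclease that degrades mitochondrial RNA, was at 31.7 CPM ± 0.888 with PBS and 78.0 ± 5.45 with EGF. LRPPRC, which stabilises mitochondrial mRNAs, was at 279 ± 4.14 and 247 ± 17.

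Assembly factors were listed by complex, and differences between the lists were not tested. For complex I, 11 of 14 rose and 2 fell with EGF (median 0.45), 5 rose and 3 fell with OSM, and 7 fell with TGFB. For complexes II, III and V, 6 rose and 5 fell of 13 with EGF, 3 rose and 5 fell with OSM, and 7 fell with TGFB. The list for complex IV assembly and cytochrome c, which also holds COX4I1, had 10 higher and 8 lower of 21 with EGF, 2 and 6 with OSM, and 0 and 7 with TGFB. These counts are to be read against the all-gene shares given above. COX4I1, subunit 4 of complex IV, fell with each ligand (-0.50, -0.28 and -0.23), while CYCS, the gene for cytochrome c, rose with EGF (0.64) and fell with TGFB (-0.67). In the tricarboxylic acid cycle (13 genes), 2 rose and 6 fell with EGF, 1 rose and 9 fell with OSM, and 10 fell with TGFB.

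When TGFB was added to OSM, 67 of 78 mitochondrial ribosome genes fell (median -0.36), as did 12 of 15 genes for mitochondrial DNA, 11 of 16 for mitochondrial RNA and 10 of 14 for complex I assembly. Added to EGF, it lowered 64, 12, 11 and 12 of the same lists, and added to EGF+OSM, it lowered 68, 14, 13 and 12.

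**Figure D5:**
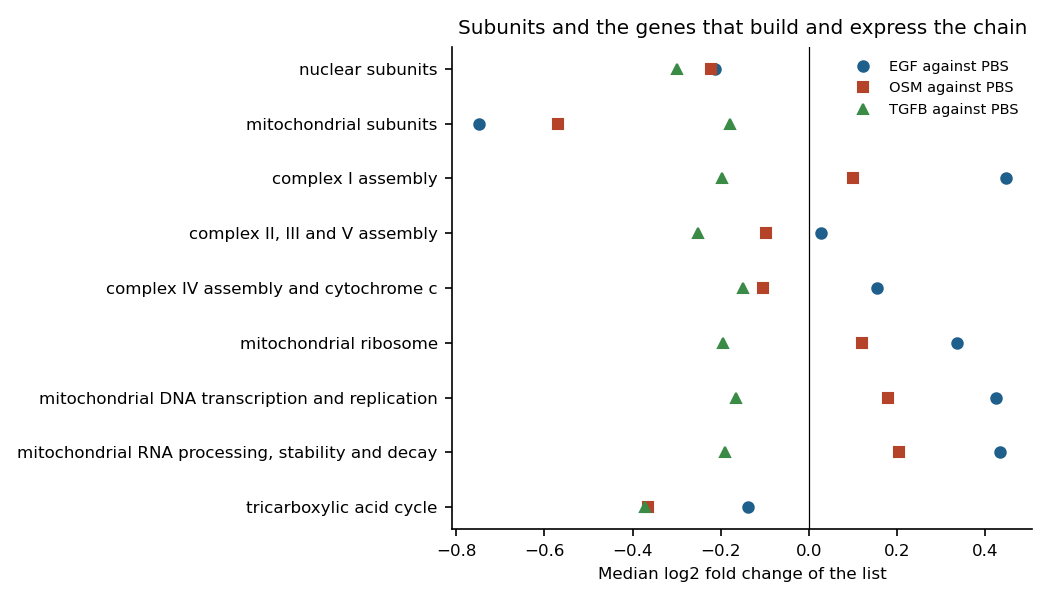
Median log2 fold change against PBS of the nuclear and mitochondrial subunits and of 7 gene lists, for EGF (circles), OSM (squares) and TGFB (triangles). With EGF the subunits lie below 0 (-0.21 and -0.75) and the mitochondrial ribosome, mitochondrial DNA and RNA and complex I assembly lists lie between 0.34 and 0.45; with TGFB all 9 points lie below 0.

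Among 9 tested regulators of respiratory genes, 4 rose and 4 fell with EGF, 5 rose and 3 fell with OSM, and 2 rose and 3 fell with TGFB, to be read against the all-gene shares given above. PPARGC1A, the coactivator PGC-1 alpha, went from 19.1 CPM ± 0.964 (SD, n = 3) with PBS to 0.986 ± 0.115 with EGF, 7.22 ± 2.48 with OSM and 16.0 ± 0.703 with TGFB. The log2 fold changes were -4.27, -1.40 and, not called, -0.26. Its partner ESRRA, the nuclear receptor ERR alpha, went from 167 CPM ± 5.12 to 73.0 ± 2.71, 71.4 ± 3.96 and 106 ± 5.58. PPARGC1B, the related coactivator, fell with all 3 (-0.64, -1.52 and -1.22). PPRC1, the third family member, rose with EGF (1.15) and OSM (0.79), and NRF1 rose with each ligand (0.72, 0.59 and 0.38). The list also held GABPA, GABPB1, YY1, ESRRG and MYC, whose single values are not given here.

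Proliferation genes were high with the ligands that lowered the mitochondrial mRNAs. All 10 rose with EGF (median 3.97) and with OSM (3.57), 1 of 10 fell with TGFB, and all 10 were lower with PBS than at T0 (-2.56). At T0, however, mitochondrial members took 2.77% to 2.79% of counts, against 2.85% to 3.06% with PBS. With EGF or OSM they took at most 2.10%. Their part in the results was not tested.

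Members with tissue-restricted paralogs were represented almost wholly by the widely expressed form. COX6A2 had no counts in any library, and COX7A1, COX7B2, COX8C, ATP5MGL and UQCRHL had at most 7 counts in any library; these 6 were not tested. NDUFA4L2, a paralog of the complex IV subunit NDUFA4, had 1 to 15 counts per library, and COX6B2 had 4 to 27. NDUFA4 stood at 151, 163 and 166 CPM with PBS and fell with EGF (-0.22), OSM (-0.34) and TGFB (-0.36). COX6B1 fell by 0.48, 0.43 and 0.30, COX6A1 by 0.52, 0.50 and 0.28, and COX7A2 by 0.35, 0.33 and 0.29. COX8A fell with OSM (-0.20) and TGFB (-0.37) and was not called with EGF (-0.03). COX6B2 was called higher with OSM (1.19, SE 0.36) at 0.655, 0.377 and 0.405 CPM against 0.225, 0.129 and 0.269 with PBS. NDUFA4L2 was called higher with EGF+TGFB (1.44, SE 0.51), at so few counts that the size is imprecise, and not without EGF+TGFB replicate 1.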

How the data were processed

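Per the labels, polyA RNA of 27 MCF10A libraries was sequenced with a stranded mRNA kit. The deposited table holds estimated counts per gene as whole numbers, so rounding changed nothing. The submitters' processing notes name Trim Galore 0.4.3, cutadapt 1.10, FastQC 0.11.5, kallisto 0.46.2, R 3.5.0 and the builds GRCh38.p5 and hg38, without roles. Whether strand was used in counting is not given in the sources used here. Rows sharing a symbol were summed (6 members had several rows, 117 rows in all), weakly counted genes were removed with filterByExpr, and edgeR 4.0.16 (R 4.3.3) fitted its quasi-likelihood model with robust estimation and TMM scaling (factors 0.867 to 1.12) to 9 group means, leaving 18 residual degrees of freedom. The method was tested on simulated data in which few genes changed, in the EGF group only, and libraries were drawn independently. That setting cannot show how the method behaves where most genes are called or where libraries differ by replicate number. CPM uses TMM-scaled library sizes and so moves with the TMM factors, whereas shares use raw totals without these factors. Promoter, motif and mitochondrial sequences came from RefSeq and the reference genome, and gene positions from GENCODE.

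Named genes were the 13 mitochondrial members, the 3 called higher and lower with the largest change in each comparison with PBS or T0 (2 in other comparisons), and members listed by role: SDHA to SDHD, tissue paralogs, ATP5MC1 to ATP5MC3, ATP5IF1, UQCRFS1, NDUFS1, ATP5F1A and ATP5F1B. Genes named beside these were chosen after their values were seen. Members, gene lists and markers were chosen with earlier results of these data known. Replicate numbers were not treated as pairing in the main fit, because the labels state no block. Deviations of same-numbered libraries correlated at a median r of 0.057, and 22 of 108 pairs exceeded 0.1. Those of differently numbered libraries had a median r of -0.034, with 1 of 216 pairs above 0.1. Replicate 1 also had the lowest nuclear share in every group. Libraries thus differed by replicate number, which the p-values and SEs of the main fit do not take into account. Alternatives were RLE and upper-quartile scaling, DESeq2 1.42.0, no filter, a replicate block, the compared groups alone, rows as deposited, mitochondrial genes left out of library sizes, pseudogene copies added, and each library left out.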

Additional observations from a re-analysis of the deposited data

Results flagged for a closer look

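These results concern the test of whether a pair of ligands departed from the sum of its single-ligand log2 changes, by edgeR's quasi-likelihood test over all 15575 genes. For EGF+OSM, 38 of 81 nuclear and 5 of 13 mitochondrial members departed, against 38.7% of all genes. NDUFB5 departed by 0.81 and SDHD by 0.63, both upwards, so that the pair lay near the stronger single ligand. NDUFA4L2 (-2.39) and COX6B2 (-1.46) departed downwards, from 1 to 15 and 4 to 27 counts per library. For EGF+TGFB, 14 of 81 nuclear and 2 of 13 mitochondrial members departed, against 29.8% of all genes, among them COX5B (0.34), COX6A1 (0.32) and NDUFV2 (-0.21). For OSM+TGFB, 7 of 81 nuclear members departed, against 23.3% of all genes, and 0 of 13 mitochondrial ones by edgeR or DESeq2 (0 at an unadjusted p under 0.05), among them NDUFA6 (0.33), NDUFA8 (0.30) and NDUFV2 (-0.30). All 3 departures share the PBS libraries.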

How the results depend on the processing

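With EGF, OSM, EGF+OSM, OSM+TGFB and all 3 ligands, 13 mitochondrial members were lower than PBS in every alternative run, and 11 to 13 were with EGF+TGFB, and no called member changed sign under RLE or upper-quartile scaling. With upper-quartile scaling, nuclear medians were -0.49 (EGF+TGFB), -0.57 (OSM+TGFB) and -0.57 (all 3), 3 nuclear members were higher with EGF+TGFB, and SDHC with EGF+TGFB, uncalled at 0.00, was at -0.092. Mitochondrial members lower with TGFB numbered 2 with upper-quartile scaling or a replicate block, 3 with DESeq2 and 1 with the compared groups alone (0 to 4 leaving out a library). Mitochondrial members higher with PBS than at T0 numbered 1 with upper-quartile scaling, no filter or rows as deposited and 6 with the compared groups alone (1 to 1 leaving out a library), and nuclear ones 7 with the block (2 to 4). Adding pseudogene copies, which hold 12.1% of the MT-ATP6 count, gave a T0 mitochondrial share of 2.81%.

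The replicate block gave 11 nuclear members higher with EGF+OSM. On average, 26 of 27 libraries correlated best with those of their own number, although the labels state no block. Between EGF and OSM, nuclear members higher numbered 20 (RLE), 20 (block) and 21 (DESeq2), and mitochondrial ones lower 4 (block), with 8 to 17 and 2 to 8 leaving out a library. With TGFB added to EGF, leaving out a library gave 1 to 3 nuclear and 0 to 6 mitochondrial members higher. With TGFB added to OSM, 0 nuclear members were higher with upper-quartile scaling, no filter or the compared groups alone (0 to 1 leaving out a library). Mitochondrial ones lower numbered 3 (upper quartile), 0 (no filter), 4 (block), 3 (DESeq2) and 7 (compared groups alone), or 0 to 6.

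For the departure of EGF+OSM, nuclear members lower numbered 4 (upper quartile) and 2 (no filter), or 3 to 6, and mitochondrial ones higher 9 (block), or 3 to 12. For EGF+TGFB, mitochondrial ones higher numbered 1 (upper quartile), 1 (no filter), 4 (block) and 0 (compared groups alone), or 0 to 7. Nuclear ones higher numbered 23 (block) and 8 (compared groups alone), or 6 to 19, and lower 0 (no filter) and 3 (compared groups alone), or 0 to 1. For OSM+TGFB, nuclear ones higher numbered 13 (block) and 2 (compared groups alone), or 1 to 8. The causes were not tested, and the block changed no other count by more than 1.5 times.

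With 3 libraries a group, the median SE of a log2 difference was 0.06 for nuclear members and 0.10 for mitochondrial ones. Mitochondrial estimates down to -0.24 with TGFB were not called, nor was MT-ND1 at 0.25 in PBS against T0. Among nuclear members, NDUFA4 at -0.18 in PBS against T0 was not called. A member not called may thus have changed by such amounts. Estimated counts can move reads between near-identical copies, overlapping genes and read-through transcripts.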
